A study of Homo sapiens with 6 samples.

Results

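The replication-dependent histone genes encode the H1 linker histones and the core histones H2A, H2B, H3 and H4 that package newly copied DNA. The set comprised 69 of the 20046 protein-coding genes of GENCODE version 44. Members were chosen by symbol alone: H1-1 to H1-5 and every symbol that starts with H2AC, H2BC, H3C or H4C. They were 5 H1, 17 H2A, 19 H2B, 13 H3 and 15 H4 genes. On chromosome 6 lay 54 of them, in a main block of 33 genes and in distal blocks of 5 and 16. Chromosome 1 held 11 in the 1q21 cluster and 2 in the 1q42 cluster, and H4C16 on chromosome 12 and H2BC12L on chromosome 21 stood alone.

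RNA bound to DDX5, a DEAD-box RNA helicase, was recovered by RNA immunoprecipitation from nuclear extracts of RH30 cells and sequenced (RIP-seq). RH30 is an established alveolar rhabdomyosarcoma line that carries the PAX3-FOXO1 fusion, and it was the single line used. The groups were 3 DDX5_IP samples, made with the DDX5 antibody of Abcam, and 3 INPUT samples without an antibody, both from fusion-positive RH30 cells with no treatment named in the labels. The design text calls the replicates biological, the library kit was unstranded, and the INPUT samples were not analysed here.

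Each DDX5_IP sample had 1 deposited list of peak intervals. The lists held 23715, 23651 and 45832 intervals in replicates 1, 2 and 3, with a median fold enrichment of 2.66, 3.21 and 2.91. This fold is the authors' own value for a peak over the background of their peak caller, and the library that served as control is not given in the sources used here. It serves below to describe peaks and to rank them within a list. The sequencing depth is unknown, and the number of intervals can depend on it. A peak list shows no RNA level, so the abundance of a transcript and its recovery with DDX5 cannot be told apart here. Of 8 genes taken to mark fusion-positive rhabdomyosarcoma, PAX3, FOXO1, MYOD1, MYOG, DES and FGFR4 had an interval in all 3 lists, while CDH3 and TFAP2B had none. That is 75.0% of the markers in every list, against 25.9% of all protein-coding genes. Gene length was not taken into account, and a longer gene has more room for an interval.

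Replication-dependent histone mRNAs are made in S phase, mostly from intronless genes, and they are the main class of animal mRNA without a poly(A) tail. Their 3' end is formed by a single cut, guided by the U7 small nuclear ribonucleoprotein, downstream of a conserved stem-loop that the stem-loop binding protein SLBP holds. H2A and H2B genes often stand head to head and share the DNA between their starts.

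The stem-loop is the feature that sets these messages apart, so its forms are shown first. It was searched in hg38 (GRCh38) within 150 bases after the stop codon, as a hairpin of 16 bases with a stem of 6 pairs that opens with GG and a loop of 4 bases with T at the first and the third base. An exact stem, which also had to close with T before the loop, was found in 66 members. In H2AC11 and H2AC15, 1 pair of the stem was T opposite G instead of a Watson-Crick pair. No hairpin was found in H2BC12L. The hairpin began 25 to 70 bases after the stop codon, with a median of 38.0. The hairpin is in capitals, with 5 flanking bases on each side, on the strand of the gene, and the coordinates are those of the hairpin. The first 4 lines show the common forms, and the last 2 those with T opposite G.
H1-4, chr6:26157095-26157110, plus strand: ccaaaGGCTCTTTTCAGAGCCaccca
H2AC21, chr1:149887473-149887488, minus strand: ccaaaGGCTCTTTTAAGAGCCaccaa
H4C8, chr6:26285131-26285146, minus strand: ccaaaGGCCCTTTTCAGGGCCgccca
H4C14, chr1:149833032-149833047, plus strand: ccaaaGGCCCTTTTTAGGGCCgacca
H2AC11, chr6:27133515-27133530, plus strand: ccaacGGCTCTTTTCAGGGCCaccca
H2AC15, chr6:27837885-27837900, minus strand: aaaaaGGTTCTTTTCAGAGCCaccta
The form printed for H1-4 was present in 40 members, none of them an H4 gene. The form of H2AC21 was present in 8 members of the H1, H2A, H2B and H3 classes, that of H4C8 in 10 members and that of H4C14 in 4, all H4 genes. The remaining 6 forms had 1 member each.

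Of the 69 histone genes, 12 (17.4%) had an interval in every list and 33 (47.8%) in at least 1. These counts include H3C12, which was counted only through intervals of H2AC17. They were 11 and 32 when an interval had to overlap the canonical transcript. Over all protein-coding genes the shares were 25.9% in every list and 51.9% in at least 1. Nearly all protein-coding genes are longer and spliced, so the 1130 genes with a single-exon canonical transcript, which include all 69 members, are the nearer background. Among them 6.99% had an interval in every list and 18.1% in at least 1. The histone shares thus lay below or near those of all protein-coding genes and above those of single-exon genes. No test of these differences was made.

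Replicates 1, 2 and 3 held 25, 12 and 33 of the members, or 36.2%, 17.4% and 47.8%, against 35.4%, 35.9% and 46.1% of protein-coding genes and 11.9%, 9.65% and 15.4% of single-exon genes. Replicates 1 and 3 were thus near the share of protein-coding genes. All 12 members of replicate 2 were in replicates 1 and 3, and all 25 members of replicate 1 were in replicate 3. The membership was therefore nested: 12 genes were in 3 lists, 13 in replicates 1 and 3, 8 in replicate 3 alone and 36 in no list. Over all protein-coding genes, 72.1% of the genes of replicate 2 were in both other lists, and 91.9% of those of replicate 1 were in replicate 3. Replicate 2 stood apart in its yield of histone genes: it held 36.4% of the members of replicate 3, against 69.2% for all protein-coding genes and 52.9% for single-exon genes. Without replicate 2, 25 members were in every remaining list.

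**Figure D1:**
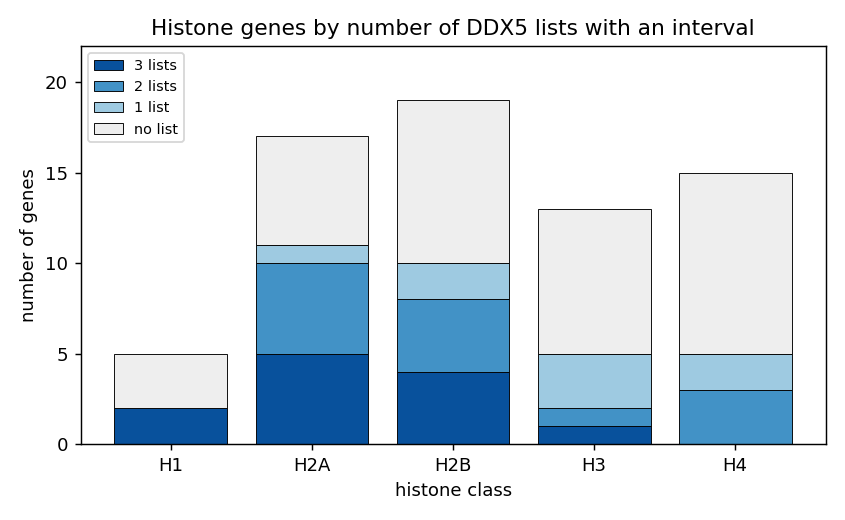
Number of histone genes (vertical axis) in each histone class (horizontal axis), split by the number of DDX5_IP lists with an interval. H2A and H2B held 9 of the 12 genes found in 3 lists, and no H4 gene was found in all 3. The H3 gene in 3 lists, H3C12, was counted only through intervals of H2AC17.

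The classes differed in their counts. An interval in at least 1 list was present for 2 of 5 H1 genes (40.0%), 11 of 17 H2A genes (64.7%), 10 of 19 H2B genes (52.6%), 5 of 13 H3 genes (38.5%) and 5 of 15 H4 genes (33.3%). In every list stood 2 H1, 5 H2A, 4 H2B and 1 H3 gene and no H4 gene. That H3 gene, H3C12, was counted only through intervals of H2AC17, here and among the 5 H3 genes above. Replicate 2 held no H4 gene. The classes are small, and the differences among them were not tested.

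Among the linker histones, which bind the DNA entering and leaving the nucleosome, H1-4 and H1-2 were in all 3 lists and H1-1, H1-3 and H1-5 in none. H1-4 had a fold enrichment of 2.02, 4.04 and 5.07 in replicates 1, 2 and 3, averaging 3.71 ± 1.55 (SD, n = 3). Its −log10 q was 10.5, 40.0 and 51.2. Replicate 1 was the low one by both measures. In each list the interval of H1-4 was also the widest of any member, at 662, 689 and 717 bp, and the place common to all 3 lists, chr6:26156367-26157028, covered 97.1% of the coding sequence. H1-2 had 1.63, 1.94 and 2.76, a mean fold of 2.11 ± 0.586 (SD, n = 3), with its highest value in replicate 3. The common place of H1-2, chr6:26055893-26056425, covered 83.4% of the coding sequence.

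The coding sequences of H1-2 and H1-4 are related, and stretches of both are shown to compare them. The stretches below, bases 248 to 367 of each coding sequence on the strand of the gene in hg38, were covered whole in all 3 lists for both genes. Capitals mark the 13 bases that differ between them, an identity of 89.2%.
H1-4, chr6:26156638-26156757, plus strand: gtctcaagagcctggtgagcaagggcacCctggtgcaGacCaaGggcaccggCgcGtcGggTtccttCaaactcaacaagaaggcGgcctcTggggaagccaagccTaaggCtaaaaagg
H1-2, chr6:26056062-26056181, minus strand: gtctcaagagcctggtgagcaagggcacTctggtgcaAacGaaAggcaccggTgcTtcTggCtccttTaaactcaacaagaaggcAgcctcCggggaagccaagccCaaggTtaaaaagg
Every 50-base word of the coding sequences of all 5 H1 genes occurred once in hg38, so the intervals of H1-2 and H1-4 lay on sequence that separates the genes at that length.

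Of the H2A genes, whose products pair with H2B in the nucleosome, H2AC6, H2AC11, H2AC17, H2AC18 and H2AC21 were in all 3 lists. H2AC21 had a fold of 2.26, 2.52 and 3.96 in replicates 1, 2 and 3, averaging 2.91 ± 0.920 (SD, n = 3). H2AC6 had 2.15, 1.92 and 2.93, a mean fold of 2.34 ± 0.530 (SD, n = 3). Both were highest in replicate 3. H2AC11 had 2.09, 2.14 and 2.66, a mean fold of 2.30 ± 0.317 (SD, n = 3), and H2AC17 had 2.18, 2.35 and 2.53, a mean fold of 2.35 ± 0.176 (SD, n = 3). H2AC18 had 1.71, 2.15 and 2.04, a mean fold of 1.97 ± 0.231 (SD, n = 3), the lowest mean of the genes in 3 lists. The common places covered 85.6% of the coding sequence of H2AC21 (chr1:149887567-149887900) and 86.7% of that of H2AC11 (chr6:27133090-27133427). They covered 26.4% in H2AC6 (chr6:26124467-26124569), 49.7% in H2AC17 (chr6:27892853-27893046) and 41.3% in H2AC18 (chr1:149842414-149842574).

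H2AC7, H2AC8, H2AC15, H2AC19 and H2AC20 were in replicates 1 and 3, and H2AC12 was in replicate 3 alone. H2AC15 had a fold of 2.65 and 5.98 in replicates 1 and 3, and the second value was the highest of any member in any list. H2AC7 had 3.78 and 4.58, the first being the highest fold of any member in replicate 1. H2AC12 had 5.64 in replicate 3. A gene missing from replicate 2 was thus not always a gene with a low fold elsewhere. A high fold need not come with a high −log10 q, which was 2.74 and 14.5 for H2AC15 and 5.47 and 10.1 for H2AC7. For H2AC12 it was 12.9. Such values can recur within a list. Those of H2AC7 in replicate 1 were also the values of LSM11, and those of H2AC15 in replicate 3 were also the values of PAX3.

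Of the H2B genes, H2BC7, H2BC8, H2BC12 and H2BC21 were in all 3 lists. H2BC21 had a fold of 3.59, 2.81 and 5.66 in replicates 1, 2 and 3, and its mean of 4.02 ± 1.47 (SD, n = 3) was the highest of the 12 genes. H2BC12 had 2.89, 3.17 and 3.16, a mean fold of 3.07 ± 0.158 (SD, n = 3), the smallest SD among the 12. H2BC8 had 1.97, 2.78 and 2.98, a mean fold of 2.58 ± 0.534 (SD, n = 3). H2BC21 and H1-4, the genes with the highest means, were also those whose lists differed most. H2BC7 had 1.84, 2.20 and 3.35, a mean fold of 2.46 ± 0.793 (SD, n = 3), but its intervals in replicates 1 and 2 met in 1 base only. The common places covered 69.6% of the coding sequence of H2BC12 (chr6:27146536-27146801), 37.0% of that of H2BC21 (chr1:149886501-149886646 reaches past its start codon) and 29.1% of that of H2BC8 (chr6:26216496-26216605).

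The place of H2BC8 common to all lists is shown beside the matching stretch of H2BC12, which was also covered whole in all 3 lists. Both are bases 39 to 148 of the coding sequence in hg38 on the strand of the gene, and capitals mark the 13 bases that differ, an identity of 88.2%. Every 50-base word of the H2BC8 coding sequence was unique in hg38, but only 26.1% of those of H2BC12 were, and some of its words had 10 copies. Within the intervals of H2BC12, 31.1%, 36.8% and 30.7% of the words were unique in replicates 1, 2 and 3. The rest of each interval cannot be assigned to H2BC12 alone at that length.
H2BC8, chr6:26216496-26216605, minus strand: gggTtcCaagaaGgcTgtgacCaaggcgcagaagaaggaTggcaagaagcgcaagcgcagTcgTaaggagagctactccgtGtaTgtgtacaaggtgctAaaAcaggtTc
H2BC12, chr6:27146651-27146760, minus strand: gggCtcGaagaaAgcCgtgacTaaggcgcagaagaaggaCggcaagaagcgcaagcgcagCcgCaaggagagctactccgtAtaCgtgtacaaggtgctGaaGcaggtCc
H2BC4, H2BC5, H2BC15 and H2BC18 were in replicates 1 and 3, with folds of 1.90 to 3.25 in replicate 1 and 2.17 to 4.10 in replicate 3. H2BC11 and H2BC17 were in replicate 3 alone, at 2.88 and 4.10.

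H3 and H4 form the tetramer at the centre of the nucleosome, and their genes gave fewer repeated intervals. H3C12 was the only H3 gene counted in all 3 lists, and it was counted because a long transcript record of it runs over H2AC17. Its interval in each list was that of H2AC17, with no base in the coding sequence of H3C12. When an interval had to overlap the canonical transcript, 11 genes instead of 12 remained in every list, and 32 instead of 33 in at least 1. H3C2 was in replicates 1 and 3, at 1.87 and 1.71, and H3C4, H3C11 and H3C15 were in replicate 3 alone, at 2.56, 4.10 and 3.59. Of the H4 genes, H4C2 had 2.26 and 1.87 in replicates 1 and 3, H4C5 had 1.62 and 1.65, and H4C8 had 2.04 and 3.26. H4C4 and H4C14 were in replicate 3 alone, at 3.42 and 5.69. The values of H4C5 were the lowest of any member in both lists.

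**Figure D2:**
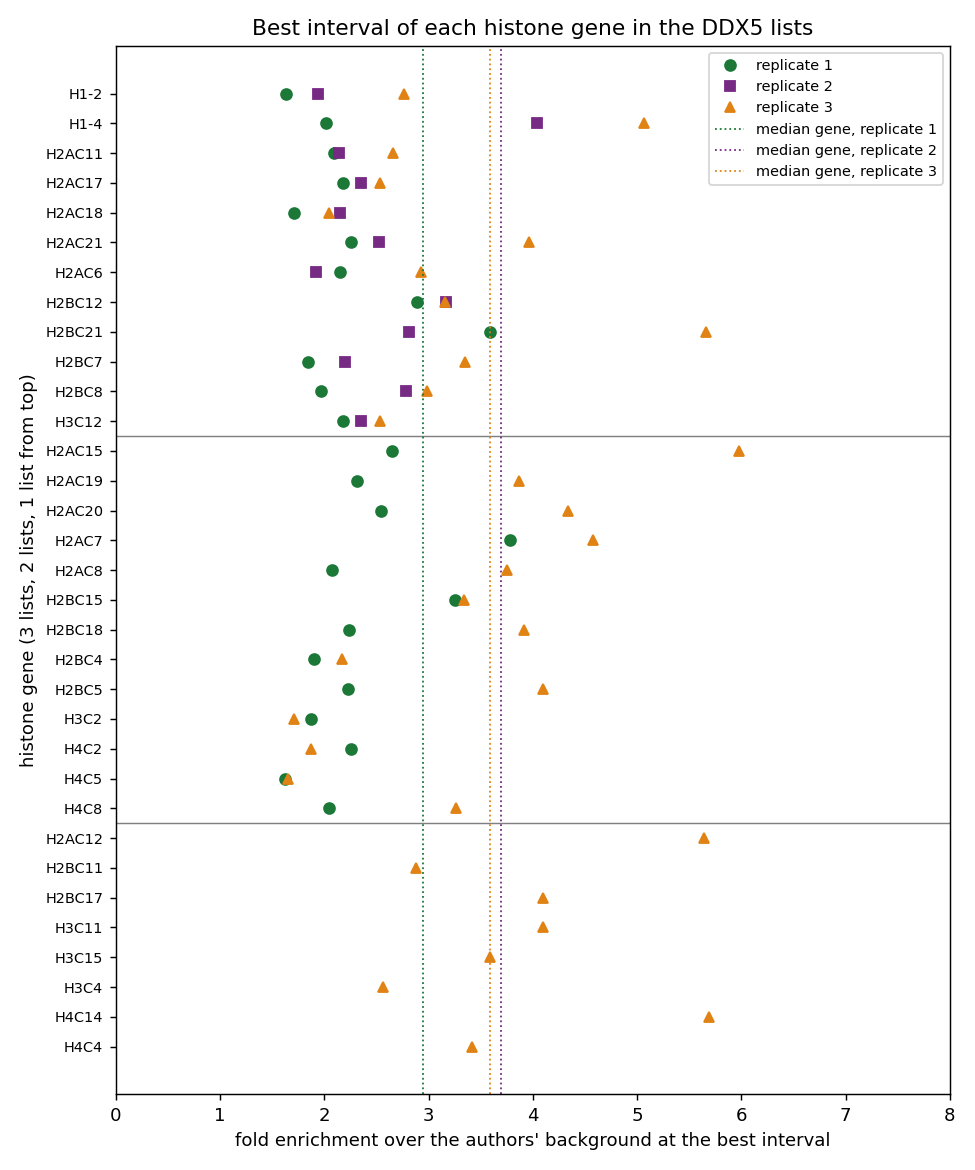
Fold enrichment over the authors' background at the best interval of each of the 33 histone genes with an interval (horizontal axis), 1 symbol per DDX5_IP list. Genes found in 3 lists, 2 lists and 1 list are separated by grey lines, and the dotted lines mark the median over all protein-coding genes with an interval, at 2.95, 3.69 and 3.59 in replicates 1, 2 and 3. In replicates 1 and 2 most histone genes lie left of the line of their list.

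The fold of the histone genes was compared at the best interval of each gene, the one with the highest −log10 q. A longer gene with more intervals has more chances of a high value there. The median best fold of the members with an interval was 2.18, 2.35 and 3.35 in replicates 1, 2 and 3, averaging 2.63 ± 0.632 (SD, n = 3 lists). Protein-coding genes with an interval had medians of 2.95, 3.69 and 3.59 (3.41 ± 0.401), and single-exon genes 2.56, 3.37 and 3.24 (3.06 ± 0.435). The histone median was below that of protein-coding genes in each list, and below that of single-exon genes in replicates 1 and 2 but not in replicate 3. Taken per interval, the members' median fold of 2.15, 2.35 and 3.38 was below the median of the whole list in replicates 1 and 2 and above it in replicate 3. At the best interval, a fold of at least 4 was reached by 0 of 25, 1 of 12 and 10 of 33 members. That is 0%, 8.33% and 30.3%, against 19.2%, 41.2% and 39.7% of protein-coding genes with an interval. When any summit of at least that fold counted, no member was in every list, against 4.25% of protein-coding and 0.708% of single-exon genes. By that rule 10 members were in at least 1 list, against 29.5% and 6.73%. At a −log10 q of at least 5, 7 members were in every list: H1-4, H2AC6, H2AC11, H2AC21, H2BC8, H2BC12 and H2BC21. Of protein-coding genes 15.2%, and of single-exon genes 4.16%, were in every list at that threshold.

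Within the genes, the intervals lay on the coding sequence. The summit fell in coding sequence for 25 of 25, 11 of 11 and 33 of 34 member intervals, a mean share of 99.0% ± 1.70 (SD, n = 3 lists). The share was 40.2%, 30.4% and 52.9% for all intervals in protein-coding genes, and 31.0%, 19.9% and 32.5% for those in the other single-exon genes. The histone share was above both in each list. Coding sequence made up a median of 78.8% of the canonical transcript of the members and 66.3% of that of the other single-exon genes, with median transcript lengths of 487 and 1289 bp. The transcripts thus differed in shape too, and the part of shape in the difference in share was not tested.

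The exception was a second interval of H2BC21 in replicate 3, chr1:149884578-149884662, in the long 3' UTR of that gene. It had a fold of 2.56 and a −log10 q of 1.33, and lay past the stem-loop. The other 33 intervals of replicate 3, and all 25 and 11 of replicates 1 and 2, ended before the stem-loop. The median gap of those intervals was 85.0, 133 and 61.0 bases in replicates 1, 2 and 3, and no interval ended inside the hairpins printed above. Intervals covered a median of 71.7%, 69.6% and 85.2% of the coding sequence, and their summits lay at a median of 50.0%, 39.9% and 51.8% of its length. They began before the start codon in 5, 4 and 15 cases and ended after the stop codon in 1, 0 and 4.

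Member intervals were wide for their lists. Their median width was 247, 269 and 330 bp in replicates 1, 2 and 3 (282 ± 43.0 bp, SD, n = 3 lists), against 175, 196 and 190 bp (187 ± 10.8 bp) for all intervals in protein-coding genes. Several summits were present in 9, 4 and 13 of them, a mean share of 36.9% ± 1.20, against 29.2% ± 2.39. Both differences had the same direction in all 3 lists. Neither measure was set against the other single-exon genes, and the part of transcript shape in them was not tested.

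**Figure D3:**
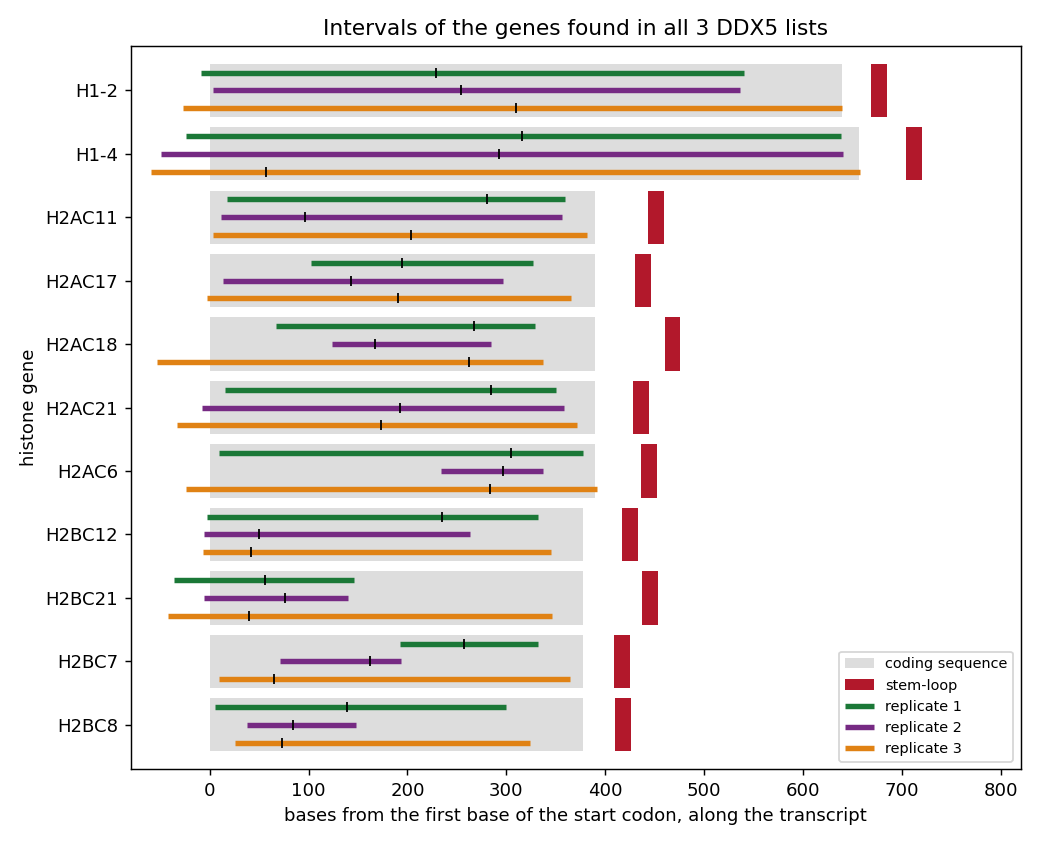
Best interval of the 11 histone genes with an interval on the canonical transcript in all 3 lists, drawn along each gene from its start codon (horizontal axis, bases, on the strand of the gene), 1 line per DDX5_IP list, with the coding sequence in grey, the stem-loop in red and the summits as black ticks. All intervals shown end before the stem-loop, and those of H1-4 span nearly the whole coding sequence.

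Near-identical copies limit which gene an interval can be given to. Coding sequences were identical within 4 pairs: H2AC18 and H2AC19, H3C14 and H3C15, H4C11 and H4C12, and H4C14 and H4C15. H2AC18 was in 3 lists and H2AC19 in 2, at 2.31 and 3.87 in replicates 1 and 3. Incomplete uniqueness went beyond these pairs: 47.1% of the 50-base words of H2BC21 and 26.7% of those of H2BC18 were unique. No 50-base or 100-base word of the H2AC18 or H2AC19 coding sequence occurred once in hg38, so their intervals cannot be assigned to one copy. The same held for H4C14 and H3C15, each found in replicate 3 while its copy was in no list. How reads with several matches were placed is not given in the sources used here. The stretch below, bases 145 to 264 of both coding sequences in hg38 on the strand of the gene, has no differing base and therefore no capitals.
H2AC18, chr1:149842435-149842554, minus strand: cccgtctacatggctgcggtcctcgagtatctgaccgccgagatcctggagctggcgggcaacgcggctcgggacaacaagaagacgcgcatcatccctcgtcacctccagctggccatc
H2AC19, chr1:149851258-149851377, plus strand: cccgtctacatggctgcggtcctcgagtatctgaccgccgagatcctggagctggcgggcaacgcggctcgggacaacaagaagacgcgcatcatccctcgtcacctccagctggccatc
Members with repeated and with unique coding sequence were found both with and without an interval, and the part of repeats was not tested. Of the 12 members with under 50% of their 100-base words unique, 1 was in 3 lists, 1 in 2, 2 in 1 and 8 in none. Of the 36 members in no list, 26 had a coding sequence in which every 100-base word was unique, and 21 at 50 bases. The median share of unique 50-base words was 97.9% for the members in 3 lists, 91.8% for those in 2, 91.5% for those in 1 and 100% for those in none. The median GC content of the coding sequence was 61.5%, 59.7%, 61.7% and 61.0% in the same order.

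**Figure D4:**
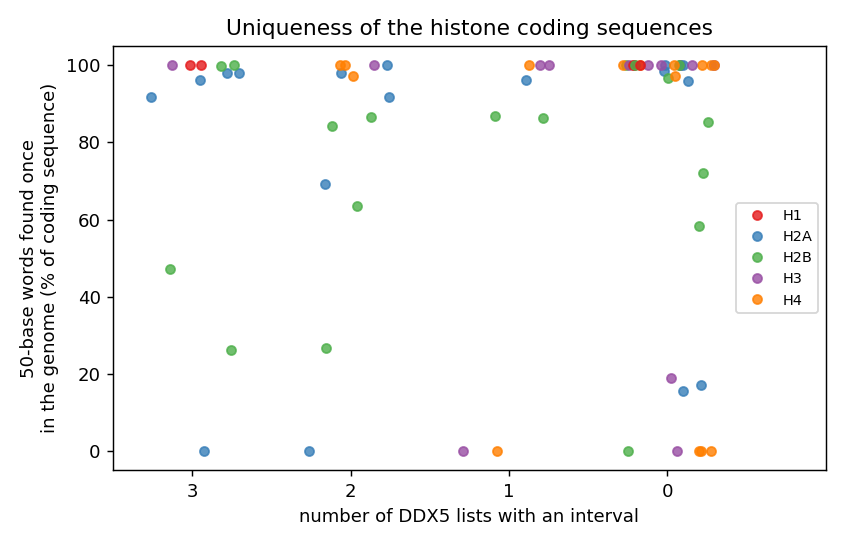
Share of 50-base words of each coding sequence that occur once in hg38 (vertical axis, percent) for the histone genes, grouped by the number of DDX5_IP lists with an interval (horizontal axis, points coloured by histone class and spread sideways for legibility). Genes with fully unique coding sequence are present in every group, among them 21 of the 36 in no list.

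Along the chromosomes, genes with and without an interval alternated in runs of 1 to 8 genes. The stretches named here were picked after their values were seen, and the arrangement was not tested. In the 1q21 cluster 8 of 11 genes had an interval in at least 1 list, among them H2BC21, H2AC20 and H2AC21, which lie within 3507 bp. In the main block of chromosome 6, 15 of 33 had one. There 12 of the 14 genes that run along the chromosome between H1-2 and H2AC8, both included, had an interval, and the next 8, H3C6 to H2BC10, had none over 49214 bp. Every 100-base word of the coding sequences of those 8 genes was unique. In the distal blocks, 4 of 5 and 6 of 16 genes had an interval, and the 7 genes H2BC13 to H4C12 had none over 24082 bp. H2AC25 and H2BC26 of the 1q42 cluster, H4C16 and H2BC12L were in no list.

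There were 12 head-to-head pairs of an H2A and an H2B gene, with starts 193 to 250 bp apart, and their pattern differed between the lists. In replicate 1, both genes had an interval in 5 pairs and a single gene in 3. In replicate 2, no pair had both and 7 had a single gene. In replicate 3, both genes had an interval in 8 pairs, and no pair had a single one. Over the lists pooled, 8 pairs had both genes in at least 1 list and 4 had neither, which is the pattern of replicate 3, the list that held every member found in the others. The pairs with both were H2BC21 and H2AC20, H2BC4 and H2AC6, H2AC7 and H2BC7, H2BC8 and H2AC8, H2BC11 and H2AC11, H2BC12 and H2AC12, H2AC15 and H2BC15, and H2AC17 and H2BC17. The number of lists was equal only for H2AC15 and H2BC15, each in 2. No interval spanned both genes of a pair. Because the libraries were unstranded, the strand of the RNA behind an interval cannot be told.

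The members in no list were H1-1, H1-3 and H1-5; H2AC1, H2AC4, H2AC13, H2AC14, H2AC16 and H2AC25; H2BC1, H2BC3, H2BC6, H2BC9, H2BC10, H2BC13, H2BC14, H2BC26 and H2BC12L. They further comprised H3C1, H3C3, H3C6, H3C7, H3C8, H3C10, H3C13 and H3C14, and H4C1, H4C3, H4C6, H4C7, H4C9, H4C11, H4C12, H4C13, H4C15 and H4C16. Without an RNA level, a gene that was little transcribed and one whose RNA was not recovered cannot be told apart.

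Other histone genes, mostly replication-independent variants, were set beside the members. Of 28, 5 (17.9%) were in every list, among them H1-10, H2AX, CENPA and MACROH2A1. H2AX, the variant phosphorylated at DNA breaks, had a fold of 4.40, 4.01 and 8.54 in replicates 1, 2 and 3. H1-10 had 2.80, 4.48 and 9.95. Both were highest in replicate 3. CENPA, the centromeric H3 variant, had 2.69, 3.61 and 3.10, and MACROH2A1 had 1.95, 2.37 and 4.86. The best interval of CENPA had its summit in an intron of the gene record in every list, that of H2AX in coding sequence.

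Of 32 genes listed as factors that make, process or degrade histone mRNA, 13 (40.6%) were in every list. The list also held YARS1, a tyrosyl-tRNA synthetase gene whose place in this group is doubtful, and it was among the 13. SLBP, which binds the stem-loop, had a fold of 1.98, 2.22 and 5.12 in replicates 1, 2 and 3. ZNF473, a zinc finger protein of the U7 machinery, had 4.82, 4.42 and 3.62, and SRRT had 2.67, 4.33 and 4.55. POU2F1, which activates H2B promoters, had the highest mean fold of the group at 6.30 ± 1.47 (SD, n = 3), ahead of NCBP3 at 4.70 ± 1.36, GON4L at 4.58 ± 0.596 and EXOSC10 at 3.97 ± 2.97. Of 14 histone chaperone genes, 11 (78.6%) were in every list. CHAF1A, a subunit of the assembly factor CAF-1, had 2.68, 5.13 and 7.00, and ASF1B, which carries H3 and H4, had 3.38, 2.77 and 4.44. DAXX had 2.64, 3.10 and 5.07, ATRX 1.73, 5.93 and 2.81, NAP1L4 3.70, 3.54 and 4.11, and SUPT16H 2.27, 4.28 and 3.22. These genes are mostly long and spliced, and a longer gene has more room for an interval, so their shares are not set against that of the members.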

How the data were processed

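RIP-seq peak lists of 3 DDX5_IP samples were used. Per the submitters' processing notes, bcl2fastq 2.20, FastQC 0.11.8, cutadapt 1.11, STAR 2.6.1d, SAMtools 1.10, MACS2 2.2.7.1 produced the files on GRCh38/hg38; parameters and the control library are not given in the sources used here. The deposited fold enrichment is a ratio made by the authors for each summit. The deposited p-value and q-value are on the −log10 scale, and the deposited score was not used. Depth is unknown, which leaves values without a counting error.

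Several summits of the same interval counted once, at the highest −log10 q, and the best interval of a gene was chosen the same way. Only the numbered chromosomes, X, Y and mitochondrial DNA entered. A gene was counted in a list when an interval overlapped its GENCODE version 44 record by at least 1 bp. Where records differed, a summit was called coding first, then 5' UTR, 3' UTR, other exon and intron. Sequences were read from hg38, and word copies were counted on both strands of the same chromosomes. Python 3.11.15, numpy 2.4.6 and matplotlib 3.10.9 were used, and the counting was tested on simulated data. No test was made, since the peak lists came from a single group with no control list. Members entered by symbol, but the gene sets were picked with earlier results of these data known. Named were all members and, of each comparison list, up to 6 genes in all 3 lists with the highest mean fold; SLBP was added after its values were seen. The values of 1 gene under this rule are not reported here. H2BU1 had no match in the annotation. Alternatives covered thresholds, list length, the overlap rule, each replicate left out and, added after seeing the data, overlap with the canonical transcript and the removal of summits whose fold and p values both recurred in at least 10 rows.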

Additional observations from a re-analysis of the deposited data

How the results depend on the processing

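Of 50 alternative values, 40 moved by less than the spread between lists or stayed within 1.5 times the main count. The 12 members in every list became 7 at a −log10 q of at least 5 and 0 at a fold of at least 4, and 12 to 25 when 1 replicate was left out, the 25 being without replicate 2. The 33 members in at least 1 list became 10 at a fold of at least 4, 20 without summits whose fold and p both recurred in the list (added after seeing the data), and 25 to 33 with 1 replicate left out. The 11 places common to all lists became 7 and 0 at those thresholds, 6 with a reciprocal overlap of 50%, 6 with summits within 100 bp, and 11 to 25 with 1 replicate left out. The median best fold ranged over 2.26 to 2.85 and the coding share over 98.5% to 100% with 1 replicate left out. Neither could be computed at a fold of at least 4, because replicate 1 then held no member. A threshold also leaves smaller lists, and the cause of these moves was not tested. With lists cut to equal length, 12 members were in every list and 29 in at least 1. No paired analysis was possible because the INPUT samples were not analysed here, so each replicate number stood for a single list. The unknown depth and the lack of an INPUT list limit what the absence of an interval can show.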
